A study of Mus musculus with 8 samples.

Results

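Of 8 RNA-seq libraries from the epithelium of mouse distal colon, 2 held almost no transcript of Hoxd13, a homeobox gene of the hind end of the body axis. These Hoxd13-low libraries, WT1 and Degs2_KO3, are described here against the 6 Hoxd13-high libraries. They were picked by the measured Hoxd13 level, in CPM (counts per M summed counts of the library), with a limit of 5 CPM. Just inside the limit lay WT1 with 0.670 CPM and Degs2_KO3 with 0.301 CPM. Just outside it lay WT4 with 36.4 CPM, and the other Hoxd13-high libraries were Degs2_KO4 with 42.3, Degs2_KO2 with 47.6, Degs2_KO1 with 57.3, WT2 with 81.7 and WT3 with 83.2 CPM. Because the classes come from these same measurements, every low against high value below is a description without a test.

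The study measured gene expression in colonic epithelial cells of wild-type mice (WT, 4 libraries) and of mice carrying a homozygous mutation of Degs2 (Degs2_KO, 4 libraries), both on a c57bl6/j background. The product of Degs2 is the enzyme that hydroxylates ceramide precursors to phytoceramides. Cells were released from pieces of distal colon by shaking in EDTA and passed through a strainer, a preparation without a sort. Each genotype holds 1 Hoxd13-low and 3 Hoxd13-high libraries, so the class is balanced over genotype. The labels give distal colon for all 8 libraries and no position along it, no age, no collection time and do not say whether separate mice were used. The classes are therefore called by their Hoxd13 level, and p-values of the genotype tests measure only the spread between these libraries.

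Hox genes lie in 4 clusters, HoxA to HoxD, and are switched on along the body axis in the order in which they sit on the chromosome, the low-numbered genes towards the head and the genes numbered 9 to 13 towards the tail. In the gut the highest-numbered genes mark the hindgut, and adult epithelium keeps much of this address. The colon is itself regional. Its upper end carries more carbonic anhydrase 1 and takes up water and salts from liquid contents, whereas the lower end absorbs sodium through an aldosterone-controlled channel. Slc10a2, the sodium-dependent bile acid carrier, is best known from the ileum.

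Promoter sequences show 4 of the genes on which the contrast turns: Hoxd13, which defined the classes, Hoxd11, its neighbour listed at 0 in both low libraries, Hoxb8, which was higher there, and the bile acid carrier Slc10a2. Each run is 300 bases of RefSeq sequence on GRCm38.p6, 250 before and 50 after the annotated start, 5′ to 3′ on the gene's strand, at chr2:74667975-74668274 (plus), chr2:74679308-74679607 (plus), chr11:96281655-96281954 (plus) and chr8:5105238-5105537 (minus). Capitals mark matches on either strand to TCGTAAA, a core recognised by Hox proteins of the hind groups, or CCATAAA, a core recognised by Cdx proteins.
Hoxd13: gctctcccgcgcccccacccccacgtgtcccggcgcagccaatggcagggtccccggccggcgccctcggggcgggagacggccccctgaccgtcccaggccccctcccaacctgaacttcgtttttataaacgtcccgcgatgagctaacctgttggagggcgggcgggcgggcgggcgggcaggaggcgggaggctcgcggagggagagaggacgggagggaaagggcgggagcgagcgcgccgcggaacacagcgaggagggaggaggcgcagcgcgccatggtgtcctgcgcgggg
Hoxd11: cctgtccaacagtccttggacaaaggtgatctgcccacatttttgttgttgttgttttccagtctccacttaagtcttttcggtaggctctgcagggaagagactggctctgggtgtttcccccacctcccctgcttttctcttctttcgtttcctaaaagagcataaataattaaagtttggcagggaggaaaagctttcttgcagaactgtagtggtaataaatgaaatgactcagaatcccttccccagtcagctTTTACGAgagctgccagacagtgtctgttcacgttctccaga
Hoxb8: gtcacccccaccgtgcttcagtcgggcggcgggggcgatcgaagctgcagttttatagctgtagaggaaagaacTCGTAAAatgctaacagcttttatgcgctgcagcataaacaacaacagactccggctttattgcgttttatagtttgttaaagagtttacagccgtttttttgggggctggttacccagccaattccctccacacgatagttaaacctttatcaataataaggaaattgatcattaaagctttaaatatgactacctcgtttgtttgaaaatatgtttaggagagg
Slc10a2: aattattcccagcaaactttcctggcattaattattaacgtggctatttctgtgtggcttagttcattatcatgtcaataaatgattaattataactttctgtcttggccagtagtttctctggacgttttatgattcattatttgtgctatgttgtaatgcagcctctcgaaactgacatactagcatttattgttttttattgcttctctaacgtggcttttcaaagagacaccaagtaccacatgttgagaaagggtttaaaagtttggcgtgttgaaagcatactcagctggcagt
Hoxb8 held TCGTAAA 176 bases before its start, and Hoxd11 held the same letters on the opposite strand, written TTTACGA, 8 bases after it. The windows of Hoxd13 and Slc10a2 held neither run of letters. Over 11574 promoters of this length TCGTAAA occurred in 84 (0.726%) and CCATAAA in 201 (1.74%), and a match of one is never a match of the other, although both end in TAAA.

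Libraries carried between 41622927 and 44606092 scaled counts, made from 32.8 M fragments in WT1 to 49.8 M in WT2, so WT1 is the shallowest. From here on CPM values are normalised with TMM, and log2 differences use a prior count of 2. On the first principal component of log2 CPM (49.7% of the variance) WT1 lay at -61.5 and Degs2_KO3 at -65.2, WT4 at -3.27, and the remaining 5 between 12.8 and 48.3. WT4 alone stood apart on the third component (12.4%), at -49.6. The class difference took up 45.04% of the summed squares over genes and the genotype 7.61%. The epithelial label held in both classes. Epcam, the epithelial adhesion molecule, was at 1722 CPM in WT1 and 1921 CPM in Degs2_KO3 against 1719 to 1981 CPM in the high libraries, and keratin gene Krt8 at 4719 CPM in WT1 and 4888 CPM in Degs2_KO3 against 4380.4 to 5569 CPM. Cdh1, the epithelial cadherin, was below the high range in both low libraries, at 1358 and 1396 CPM against 1801 to 2097 CPM. No member of the list of 14 epithelial structure genes passed the rule for a difference described next.

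A gene was counted as different when both low libraries lay outside the range of all 6 high libraries and the class means differed by at least 1 on the log2 scale, that is 2-fold. Of 17083 genes with enough counts, 715 (4.19%) were higher and 577 (3.38%) lower in the Hoxd13-low libraries. Without the size limit 5818 genes (34.1%) lay outside the high range, 3156 (18.5%) above and 2662 (15.6%) below. The filter keeps genes detected in as few as 2 libraries, so a gene silent in 1 class could enter through the other. Without WT1 the lower genes numbered 993 and without Degs2_KO3 762, where 1 low library alone meets the rule. The median log2 difference over all genes was 0.01. In such bulk RNA, fewer cells of a type and less RNA per cell cannot be told apart.

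The difference was also taken within each genotype, where the pair of contrasts shares no library. WT1 minus the mean of WT2 to WT4 and Degs2_KO3 minus the mean of Degs2_KO1, 2 and 4 had the same sign for 75.1% of the 17083 genes. Across genes their Pearson r was 0.742 and Spearman rho 0.645, which describes these libraries, since both low libraries were chosen with their likeness known. Over all 17083 genes, without the range rule above, the difference was at least 1 on the log2 scale in both genotypes for 571 genes. It was at most -1 in both for 452 genes. These counts follow their own rule and are not parts of the 715 and 577.

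**Figure D1:**
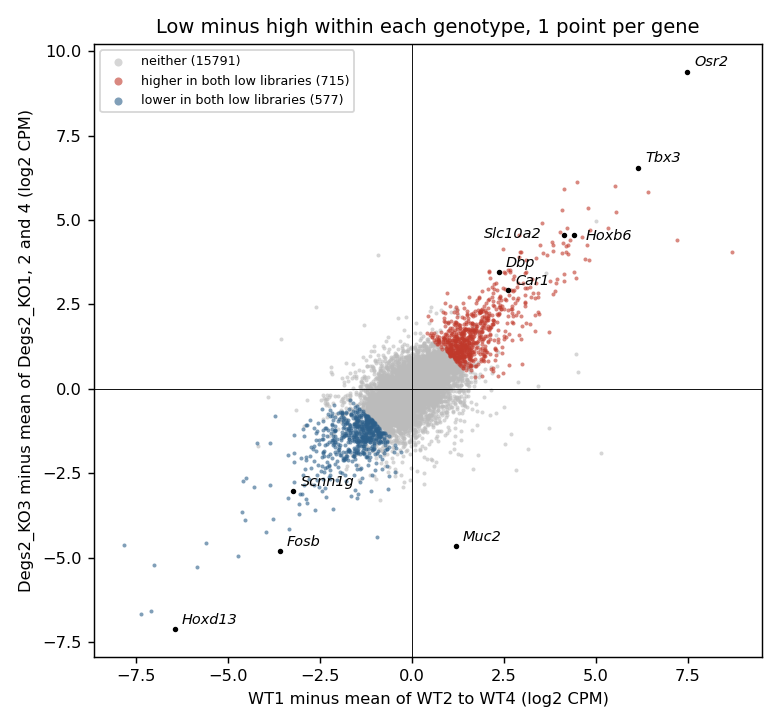
Each point is a gene, with the log2 CPM difference of WT1 from the WT2 to WT4 mean on the x axis and of Degs2_KO3 from the mean of the other Degs2_KO libraries on the y axis. Red points are the 715 genes higher and blue points the 577 genes lower in both low libraries, and named genes are in black. Most coloured points lie near the diagonal from Hoxd13 to Osr2, while Muc2 lies to the lower right.

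Immediate early genes, clock genes and markers of other cells differed between the classes as well. Summed over the list, 18 immediate early genes came to 1712 to 1853 CPM in the low and 3605 to 5504 CPM in the high libraries. The 20 T cell and intraepithelial lymphocyte markers summed to 56.3 to 69.5 CPM in the low and 13.3 to 40.7 CPM in the high libraries. The part of any of these in the class difference was not tested, and with 1 low library per genotype it cannot be told apart from the Hoxd13 class.

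The 4 marker genes split the classes with a wide gap, which for Hoxd13 follows from the limit that set the classes. The other markers were chosen with earlier results of these data known. Hoxd13 (ENSMUSG00000001819, chr2:74668310-74671599, plus strand, GRCm38) had 0.700 CPM in WT1 and 0.313 CPM in Degs2_KO3, and the lowest, median and highest of the 6 high libraries were 38.3, 54 and 85.2 CPM. Hoxb6 (ENSMUSG00000000690, chr11:96292476-96301569, plus strand), of the middle of the HoxB cluster, went the other way with 46.6 CPM in WT1 and 44.7 CPM in Degs2_KO3 against 1.03, 1.7 and 8.81 CPM. Its low libraries lay 16.6-fold above the high mean of 2.75 ± 3.01 CPM (SD, n = 6), and WT4 held the highest of the high values. The gene shares its locus with the antisense transcript Hoxb5os, and the sources used here do not say whether counting used strand.

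Slc10a2 (ENSMUSG00000023073, chr8:5083219-5105351, minus strand) was at 101 CPM in WT1 and 70.7 CPM in Degs2_KO3, against a lowest, median and highest of 2.13, 3.45 and 11.5 CPM in the high libraries. The low mean was 17.9-fold the high mean of 4.8 ± 3.42 CPM. Car1 (ENSMUSG00000027556, chr3:14766216-14808368, minus strand), the carbonic anhydrase that hydrates carbon dioxide in colonocytes, had 6192 CPM in WT1 and 6603 CPM in Degs2_KO3, and 527, 1002 and 1917 CPM as the lowest, median and highest high library. For all 4 markers the classes did not overlap, for Hoxd13 by the choice of classes. In each of Hoxb6, Slc10a2 and Car1 the high library nearest to the low ones was WT4.

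Within the HoxB cluster of chromosome 11 every gene from Hoxb2 to Hoxb8 was higher in the Hoxd13-low libraries. Of 10 members 9 passed the filter, 7 were higher (4.19% of all genes were) and 1 lower (3.38%). All 9 lay outside the high range (34.1% of all genes did). Hoxb1 was at 0 in every library. The median log2 difference over the 9 was 4.22, in WT 4.25 and in Degs2_KO 4.33.

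Hoxb8 had 32.9 CPM in WT1 and 34.1 CPM in Degs2_KO3 against 0.286, 1.15 and 4.64 CPM as lowest, median and highest of the high libraries, a log2 difference of 5.04. Hoxb7 had 13.8 CPM in WT1 and 15.8 CPM in Degs2_KO3 against 0.143, 0.49 and 2.43 CPM. Hoxb5 had 23.1 CPM in WT1 and 23.4 CPM in Degs2_KO3 against 0.668, 1.03 and 4.55 CPM. In each of these WT1 and Degs2_KO3 sat close together, far above the 5 high libraries other than WT4. Hoxb4 (14.1 and 13.1 CPM against 0.286 to 3.21 CPM), Hoxb3 (7.46 and 7.23 CPM against 0.119 to 2.36 CPM) and Hoxb2 (2.12 and 1.95 CPM against 0 to 0.259 CPM) followed the same order.

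The other end of HoxB behaved differently. Hoxb9 was at 97.9 CPM in WT1 and 119.8 CPM in Degs2_KO3 against 55.8, 67.6 and 89.2 CPM, above the high range by less than the limit, with a log2 difference of 0.65. Hoxb13, the last gene of the cluster and a marker of the hindgut, was at 96.8 CPM in WT1 and 91.4 CPM in Degs2_KO3 and at 231, 250.004 and 313 CPM in the lowest, median and highest high library. Both low libraries were below all 6 high ones, 2.82-fold by the means, without coming near 0. HoxB therefore contained genes of both directions, with the change of sign after Hoxb9.

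HoxD on chromosome 2 showed the same split around a different gene. Of 9 members 8 passed the filter and all 8 lay outside the high range (34.1% of all genes did), Hoxd13 by the choice of classes. Hoxd3, Hoxd4 and Hoxd8 were higher and Hoxd9 to Hoxd13 lower, against 4.19% and 3.38% of all genes. Hoxd1 did not pass the filter. Hoxd4 had 3.91 CPM in WT1 and 5.64 CPM in Degs2_KO3 against 0.0239, 0.0717 and 1.41 CPM, and Hoxd8 had 2.34 CPM in WT1 and 3.06 CPM in Degs2_KO3 against 0, 0.143 and 0.848 CPM. Hoxd3 had 1.33 CPM in WT1 and 1.4 CPM in Degs2_KO3 and was listed at 0 in 5 of the high libraries, with 0.683 CPM in WT4. Hoxd3 and Hoxd4 overlap in the annotation, so reads may be split between them.

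Hoxd11 and Hoxd12 had 0 counts in both low libraries. With 3 fragments as the floor in each low library, which covers counting error only, Hoxd11 was at least 80.1-fold lower than its high mean of 6.59 ± 4.42 CPM (range 2.47 to 13.6 CPM). Hoxd12 was at least 28.4-fold lower than 2.34 ± 0.941 CPM (range 1.32 to 3.93 CPM). Hoxd10 had 0 CPM in WT1 and 0.0482 CPM in Degs2_KO3 against 2.42, 4.63 and 8.03 CPM in the lowest, median and highest high library. Hoxd9 had 0 CPM in WT1 and 0.0482 CPM in Degs2_KO3 against 0.479, 0.793 and 1.31 CPM. Evx2, a homeobox gene just beyond Hoxd13 on the same chromosome, had 0 CPM in WT1 and 0.0241 CPM in Degs2_KO3 against 1.15, 1.77 and 3.62 CPM. Hoxd10 and Hoxd11 overlap the gene model Gm28309. The median log2 difference over the 8 filtered HoxD genes, Hoxd13 among them, was -4.61. It was -4.10 with the 4 genes at or under the floor put at their bound.

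**Figure D2:**
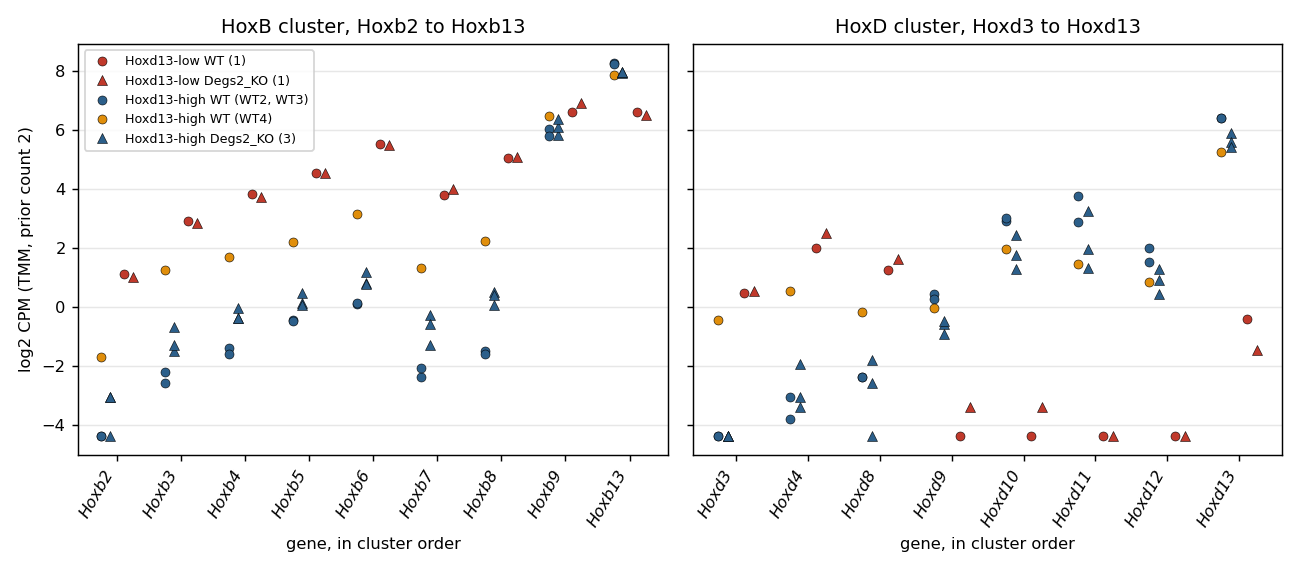
Log2 CPM (prior count 2) of HoxB genes on the left and HoxD genes on the right, in cluster order, 1 point per library, with circles for WT and triangles for Degs2_KO. Low libraries are red, WT4 is orange and the other 5 high libraries are blue. Red lies on top from Hoxb2 to Hoxb8 and from Hoxd3 to Hoxd8 and at the bottom for Hoxb13 and Hoxd9 to Hoxd13, and WT4 is the upper high library for Hoxb2 to Hoxb9 and for Hoxd3 to Hoxd8.

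HoxA was much less affected. All 11 members passed the filter and none met the rule, although 7 lay outside the high range (34.1% of all genes did), and their median log2 difference was -0.36. Hoxa13, a hindgut gene like Hoxd13, was at 46 CPM in WT1 and 49.3 CPM in Degs2_KO3 against 70.8, 77.3 and 84.6 CPM, a log2 difference of -0.71. Hoxa10 (34.7 and 37.7 CPM against 48 to 59.7 CPM) and Hoxa9 (45.2 and 48.4 CPM against 58.2 to 89.4 CPM) were below the high range as well. Hoxa7 was at 53.7 and 63.3 CPM against 59 to 77.6 CPM and overlapped it. None of the 9 HoxC genes passed the filter, with at most 0.124 CPM in any library.

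Among all genes, the largest differences that both genotypes shared were led by transcription factors. Osr2, a zinc finger factor of embryonic patterning, was at 67.4 CPM in WT1 and 73 CPM in Degs2_KO3 and at 0.0239, 0.0597 and 6.22 CPM in the lowest, median and highest high library. Tbx3, a T-box factor, was at 34.6 CPM in WT1 and 27 CPM in Degs2_KO3 against 0.0239, 0.155 and 8.65 CPM. In both genes the top high value was that of WT4, and the other 5 high libraries were far below it. Nts, which encodes the gut hormone neurotensin, was at 9.08 CPM in WT1 and 7.9 CPM in Degs2_KO3 against 0, 0.0716 and 0.306 CPM. St3gal5, the ganglioside GM3 synthase, was at 10.0 CPM in WT1 and 1.81 CPM in Degs2_KO3 against 0 to 0.0943 CPM, with WT1 well above Degs2_KO3. Ces1g, a carboxylesterase, was at 155 CPM in WT1 and 129 CPM in Degs2_KO3 against 3.93 to 12.7 CPM, and reads of the near-identical Ces1 genes may be shared between them. The remaining genes that the rule put first were Cyp4b1, Cyp2c66, Cyp3a44, Hoxb8, Hoxb7, Hoxb6 and Hoxb2.

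The 12 lower genes with the largest shared difference included Hoxd10 to Hoxd13 and their neighbour Evx2. Among the rest was Fxyd4, a regulator of the sodium-potassium pump, with 0.531 CPM in WT1 and 0.506 CPM in Degs2_KO3 against 6.3, 9.36 and 20.7 CPM. Galnt17, a glycosyltransferase gene, had 0.241 CPM in WT1 and 0.12 CPM in Degs2_KO3 against 1.32, 3.53 and 4.58 CPM. Wnt8b, a Wnt ligand, had 0.217 CPM in WT1 and 0.0723 CPM in Degs2_KO3 against 1.2, 1.73 and 3.22 CPM. As the rule requires, none of these overlapped between the classes. Minar1 was listed at 0 in both low libraries, at least 12.5-fold below its high mean of 1.03 ± 1.01 CPM. Exosc6, a subunit of the RNA exosome, was listed at 0 in both as well, with 2.39 to 13.8 CPM in the high libraries. It overlaps Aars on the same strand, and the sources used here do not say how reads of the shared stretch were assigned. Fosb and Klf2, also of this group, belong to the immediate early genes.

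Of 14 genes of bile acid transport and sensing 9 passed the filter and 4 were higher (4.19% of all genes were), with none lower, and the median log2 difference was 0.98. Beside Slc10a2 these were Slc51a, the alpha subunit of the basolateral bile acid exporter, with 59.8 CPM in WT1 and 58 CPM in Degs2_KO3 against 5.51, 6.27 and 12.6 CPM. Abcc2, an export pump, had 2.75 and 2.8 CPM against 0.431 to 0.811 CPM, and Fabp6, the ileal bile acid binding protein, had 4.35 and 4.65 CPM against 1.22 to 2.17 CPM. Their classes did not overlap, as the rule requires. The exporter gene Abcc3 overlapped at 581 and 565 CPM against 373 to 577 CPM. The beta subunit Slc51b lay above the high range by less than the limit, at 36.7 and 46.9 CPM against 14.6 to 31.1 CPM. The bile acid receptor gene Nr1h4 was at 88.5 and 95 CPM against 56.1 to 94.3 CPM, and the ileal hormone Fgf15 did not pass the filter.

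Genes of small intestinal nutrient uptake moved in both directions. Of 25 members 21 passed the filter, 6 were higher and 3 lower (median log2 difference -0.04), where 4.19% of all genes were higher and 3.38% lower. Sis, the sucrase of the brush border, was at 13.9 CPM in WT1 and 6.41 CPM in Degs2_KO3 against 0.239, 0.465 and 0.66 CPM in the lowest, median and highest high library. Cubn and Amn, which together form the vitamin B12 receptor of the ileum, were at 8.35 and 6.31 CPM against 0.119 to 0.636 CPM and at 4.71 and 3.93 CPM against 0.643 to 1.51 CPM. Alpi, the intestinal alkaline phosphatase, was at 31.5 and 44.3 CPM against 3.34 to 18.9 CPM. Enpep, an aminopeptidase, and Slc2a5, the fructose carrier, were the other higher members. By the rule itself these 6 genes did not overlap between the classes.

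The 3 lower uptake genes were carriers that the high libraries held at higher counts. Slc15a1, the peptide carrier, was at 47.1 CPM in WT1 and 46.1 CPM in Degs2_KO3 against 76.3, 145 and 190.2 CPM. Slc34a2, a phosphate carrier, was at 11 and 8.36 CPM against 17.9 to 59.7 CPM, and Slc46a1, the proton-coupled folate carrier, at 4.61 and 5.93 CPM against 10.9 to 23.4 CPM. Among lipid genes (17 members, 13 filtered) 4 were higher and Abcg5 was lower, against 4.19% and 3.38% of all genes. Fabp2, the intestinal fatty acid binding protein, had 355 CPM in WT1 and 438 CPM in Degs2_KO3 against 69.1, 125 and 209 CPM, and Mogat2, which rebuilds triglycerides, had 3.02 and 3.98 CPM against 0.764 to 1.72 CPM. Fabp1 and Npc1l1 stayed under 1 CPM in all libraries.

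Intestinal transcription factors differed in 4 of 21 filtered members (of 24), all higher (4.19% of all genes were). Isx, an intestinal homeobox gene that represses vitamin A uptake, was at 63.4 CPM in WT1 and 88.2 CPM in Degs2_KO3 against 5.28, 13.1 and 38.4 CPM. Gata5, a GATA factor of the gut, was at 1.96 and 2.24 CPM against 0.191 to 1.27 CPM, and Maf at 18.9 and 13.1 CPM against 2.39 to 9.4 CPM. Creb3l3, a membrane-bound factor of lipid metabolism, was at 3.96 and 6.14 CPM against 1.29 to 3.55 CPM. Of the 21, 12 lay outside the high range (34.1% of all genes did), and 9 differences were positive and 12 negative.

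Ion and water transport showed a higher set and a lower set. Of 12 carbonic anhydrases 10 passed the filter, and Car1, Car8 and Car12 were higher and none lower (4.19% of all genes were higher). Car8, a relative of the enzymes without their activity, had 115 CPM in WT1 and 135 CPM in Degs2_KO3 against 13.1, 19.7 and 23.9 CPM, and the membrane-bound Car12 had 129.5 and 135 CPM against 37.1 to 73.4 CPM. Of 4 filtered aquaporins Aqp1, a water channel, was higher at 92.9 and 112 CPM against 26.9 to 38.1 CPM. Aqp8 overlapped at 238 and 209.7 CPM against 157 to 356 CPM, and Aqp4 was under the high range at 847 and 947 CPM against 1150.1 to 1724 CPM without reaching 2-fold.

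Of 24 genes of salt, proton and chloride transport 22 passed the filter, and 3 were lower and none higher (3.38% of all genes were lower). Scnn1g, the gamma subunit of the epithelial sodium channel, had 0.797 CPM in WT1 and 0.892 CPM in Degs2_KO3, and 5.24, 8.44 and 10.0 CPM as the lowest, median and highest high library. The low mean was 9.44-fold below the high mean of 7.97 ± 2.04 CPM. The beta subunit Scnn1b overlapped the high range at 6.64 and 8.07 CPM against 5.89 to 10.5 CPM. Scnn1a, the alpha subunit, was under it at 193 and 194 CPM against 224 to 288 CPM, short of 2-fold. Atp12a, the colonic proton-potassium pump, had 84.9 CPM in WT1 and 64.1 CPM in Degs2_KO3 against 296, 455 and 584 CPM. Best2, a bestrophin anion channel of goblet cells, had 13.4 CPM in WT1 and 16 CPM in Degs2_KO3 against 38, 52.6 and 68.9 CPM. Cldn8, a tight junction claudin, was one of 2 lower members among 10 filtered claudins, with 37.8 CPM in WT1 and 34.1 CPM in Degs2_KO3 against 101, 141 and 174 CPM. The other, Cldn14, had 1.18 and 1.47 CPM against 1.95 to 4.13 CPM.

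**Figure D3:**
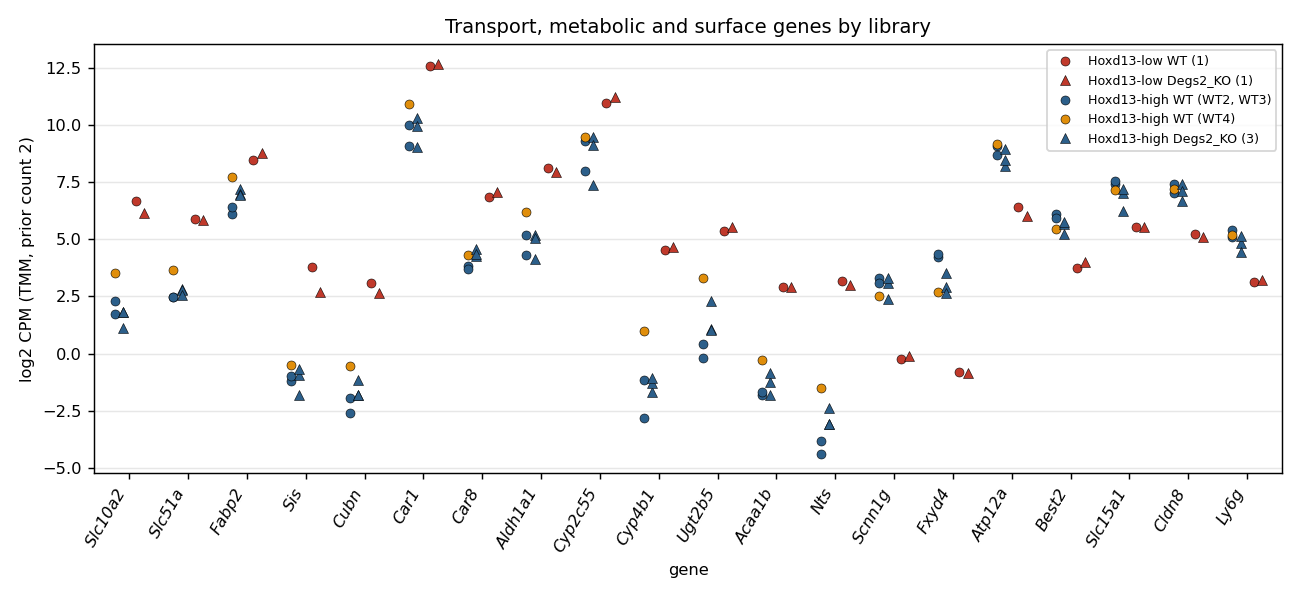
Log2 CPM (prior count 2) of 20 transport, metabolic and surface genes, 1 point per library, with low libraries in red, WT4 in orange, the other high libraries in blue, circles for WT and triangles for Degs2_KO. From Slc10a2 to Nts the red points are above all others, and from Scnn1g to Ly6g below them, as in Scnn1g with 0.797 and 0.892 CPM against 5.24 CPM or more.

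Of 27 cytochrome P450 genes, many of which oxidise foreign compounds, 22 passed the filter, 7 were higher and 2 lower (median log2 difference 0.62), against 4.19% and 3.38% of all genes. Cyp2c55, a P450 of the colon epithelium, was at 1969 CPM in WT1 and 2388 CPM in Degs2_KO3 against 168, 593 and 721 CPM in the lowest, median and highest high library. Cyp2c65 was at 268 and 284 CPM against 25 to 114 CPM and Cyp4b1 at 23.2 and 25.2 CPM against 0.0955 to 1.91 CPM. Cyp2c66 (5.12 and 3.08 CPM against 0 to 0.354 CPM) and Cyp3a44 (1.86 and 1.9 CPM against 0 to 0.0943 CPM) were nearly absent from the high libraries. Cyp2d12, lower, was at 12.2 and 9.47 CPM against 20.8 to 61.4 CPM. The Cyp2c, Cyp2d and Cyp3a genes are near-identical families, and their counts could be split between copies.

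Of 32 conjugating enzymes, which attach glucuronic acid, glutathione or sulfate, 29 passed the filter and 7 were higher (4.19% of all genes were) with none lower (median 0.35). Ugt1a1, which conjugates bilirubin, was at 179 CPM in WT1 and 198 CPM in Degs2_KO3 against 16.2, 29.3 and 68.8 CPM, and shares exons with the other Ugt1a genes. Ugt2b5 was at 41.5 and 46.4 CPM against 0.835 to 9.76 CPM, and Ugt2b36 and Ugt2b38 were higher too, again a family of near copies. The glutathione transferases Gsta1 and Gsta4 were at 9.05 and 8.99 CPM against 2.36 to 3.83 CPM and at 41.3 and 54.3 CPM against 17.6 to 24.3 CPM.

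Vitamin A genes (18 members, 15 filtered) were higher in 4 and lower in 3, against 4.19% and 3.38% of all genes. Aldh1a1, which makes retinoic acid, was at 279 CPM in WT1 and 247 CPM in Degs2_KO3 against 17.6, 34.8 and 72.4 CPM, 7.29-fold by the means. Lrat, which stores retinol as esters, was at 14.4 and 13.2 CPM against 4.44 to 7.73 CPM, and the retinol dehydrogenase gene Rdh1 at 7.41 and 8.82 CPM against 1.17 to 2.69 CPM. Lower were Aldh1a3 (0.604 and 0.867 CPM against 1.5 to 2.72 CPM), Stra6 (0.193 and 0.0723 CPM against 0.31 to 1.22 CPM) and Rdh16 (33.7 and 32.1 CPM against 65.2 to 111 CPM). Aldh1a1 and Aldh1a3, which both oxidise retinal, thus differed in opposite directions.

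Of 27 genes of ketogenesis, butyrate use and fatty acid oxidation, all filtered, 4 were higher (4.19% of all genes were) and none lower. The median was 0.26. Acaa1b, a peroxisomal thiolase, was at 7.56 CPM in WT1 and 7.54 CPM in Degs2_KO3 against 0.238, 0.322 and 0.778 CPM in the lowest, median and highest high library. Pdk4, which slows glucose oxidation, was at 8.21 and 21.6 CPM against 0.835 to 5.28 CPM, and Angptl4, an inhibitor of lipoprotein lipase, at 1.13 and 2.84 CPM against 0.119 to 0.667 CPM. The last pair differed more in Degs2_KO3 than in WT1. Of 31 filtered sphingolipid genes, the pathway of Degs2, 2 were higher, a share near the 4.19% of all genes. Sptssb, a small subunit of serine palmitoyltransferase, was at 106 CPM in WT1 and 135 CPM in Degs2_KO3 against 21.2 to 73.4 CPM, and Ugt8a, a ceramide galactosyltransferase, at 3.98 and 3.04 CPM against 0.0239 to 0.283 CPM.

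Secretory lineages were described by their markers. Of 22 enteroendocrine genes 21 passed the filter, 6 were higher and 1 lower, against 4.19% and 3.38% of all genes. Their median was 0.75, and their sum was 313.7 to 420.8 CPM in the low and 130.5 to 257 CPM in the high libraries. Chga and Chgb, granins of the secretory granule, were at 57 and 76.8 CPM against 11.7 to 33.4 CPM and at 117 and 176 CPM against 25.8 to 70.4 CPM. Sct, the secretin gene, was at 9.97 and 8.34 CPM against 0.573 to 1.67 CPM. Insl5, a hormone of colonic L cells, was at 10.1 and 10.8 CPM against 10.8 to 35.6 CPM, at the bottom of the high range without meeting the rule. Scg2, another granin, was lower at 0.579 and 0.554 CPM against 1.08 to 4.05 CPM. Nts, with the widest difference of the list, was nearly absent from the high libraries.

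Tuft cell markers met the rule, all higher, in 6 of 15 filtered members (of 17), and all 15 differences were positive (median 0.90). Of all 17083 genes 4.19% were higher by the rule and 8784 had a positive difference. Ptgs1, the cyclooxygenase 1 gene, was at 2.87 and 3.06 CPM against 0.574 to 1.41 CPM, and Avil, a villin relative, at 15.3 and 17 CPM against 5.32 to 8.76 CPM. Dclk1 and Trpm5, the usual identifying pair, lay above the high range, short of 2-fold, at 28.8 and 29.3 CPM against 13.4 to 22.8 CPM and at 20.3 and 19.4 CPM against 7.91 to 13.2 CPM. The summed level was 123.5 to 126.8 CPM in the low and 53.0 to 78.5 CPM in the high libraries.

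Among goblet cell genes only B3gnt6, an enzyme of mucin O-glycans, met the rule of 18 filtered members, a share near the 4.19% of all genes, at 40.1 CPM in WT1 and 52.9 CPM in Degs2_KO3 against 6.18, 10.9 and 23.2 CPM. Muc2, the gel-forming mucin of the colon, separated the low libraries from each other, with 24615 CPM in WT1 and 525 CPM in Degs2_KO3 against 5898, 14648 and 20556 CPM. WT1 was above all high libraries and Degs2_KO3 below all of them. Like Muc2, the goblet cell genes Retnlb, Ang4, Spink4, Capn9 and Fer1l6 had a positive difference in WT and a negative one in Degs2_KO. Retnlb, a secreted resistin-like protein, was at 911 and 455 CPM against 166 to 697 CPM, with WT1 above the high range and Degs2_KO3 inside it. Zg16 was at 1845 and 2631 CPM and Agr2 at 1679 and 1794 CPM in WT1 and Degs2_KO3, with differences of the same sign in both genotypes. Muc2 was picked after its values were seen. The goblet cell genes Fcgbp and Clca1 had a failed estimate in some library and were not used here.

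Mature colonocyte genes were higher in 6 and lower in 5 of 23 filtered members (of 25), against 4.19% and 3.38% of all genes. Prap1 had 8.81 and 10.5 CPM against 0.144 to 1.63 CPM and Slc3a1, a subunit of the cystine carrier, 46.1 and 49 CPM against 6.23 to 17.7 CPM. On the lower side Slc37a2, a sugar phosphate exchanger, had 86 CPM in WT1 and 32.3 CPM in Degs2_KO3 against 210.4, 343 and 554 CPM, and Trpm6, a magnesium channel, had 83.5 and 50.6 CPM against 136 to 283 CPM. Ly6g, which colonocytes also express, had 8.76 and 9.32 CPM against 21.7 to 42.1 CPM. The near-even split of the list gave a median of 0.12.

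Stem cell and Wnt target genes were higher in 4 of 19 members (4.19% of all genes were). Cd44, an adhesion receptor of the crypt, was at 72.6 CPM in WT1 and 87.7 CPM in Degs2_KO3 against 22.4, 37.1 and 41.2 CPM, and Tnfrsf19, Nkd1 and Sp5 were the others, the last at 1.09 and 0.964 CPM against 0.0471 to 0.333 CPM. Of 25 proliferation genes none met the rule. Mki67 was at 262 and 218 CPM against 165 to 401 CPM, inside the high range.

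Defence genes were mixed. Of 26 antimicrobial members 20 passed the filter, 2 were higher and 3 lower, against 4.19% and 3.38% of all genes. Saa1, an acute phase protein of the epithelium, was lower at 198 CPM in WT1 and 161 CPM in Degs2_KO3 against 282, 429 and 661 CPM, and Saa3 was higher at 3.19 and 1.28 CPM against 0.215 to 0.825 CPM. Of 27 genes of MHC class II and the interferon gamma response, Ido1 alone was higher, a share near the 4.19% of all genes. It was at 2.46 and 2.94 CPM against 0.191 to 1.72 CPM. Of the 7 filtered Paneth cell genes (of 12) 2 were higher and 2 lower, against 4.19% and 3.38% of all genes. All 6 alpha-defensin genes were at 0 in both low libraries, so the identifying products of that cell were not counted there. None of the 12 was at 0 in all 8 libraries, and no class difference is read from the defensins.

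No member met the rule among 25 interferon-stimulated genes, 25 genes of cholesterol synthesis, 25 chaperones and stress genes of the endoplasmic reticulum, 5 filtered transmembrane mucins and 26 nuclear-encoded genes of the respiratory chain. Of the last group 19 lay outside the high range (34.1% of all genes did), by small amounts with a median of 0.16. Atp5b, a subunit of the mitochondrial ATP synthase, was at 1776 and 1869.5 CPM against 1504 to 1694 CPM. Among 13 heat shock genes only Hspb1 met the rule, lower in the low libraries (3.38% of all genes were) and under 2 CPM in all libraries.

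**Figure D4:**
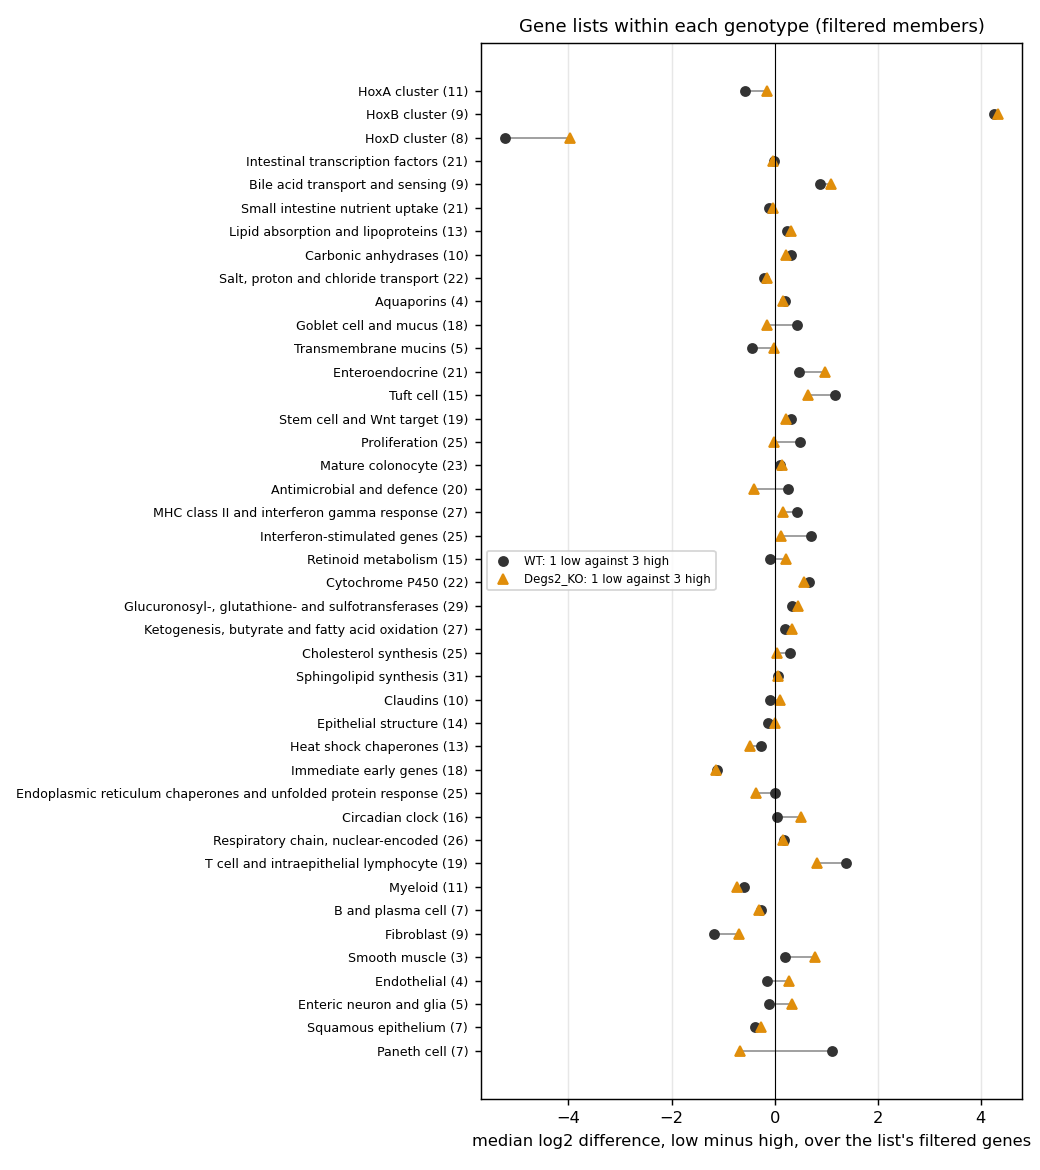
Median log2 difference (low minus high) over the filtered members of each gene list with at least 3 of them, the number in parentheses, with a circle for WT and a triangle for Degs2_KO. The vertical line is the median over all genes, 0.01. HoxB, T cell, tuft cell and enteroendocrine genes lie to the right in both genotypes, HoxD and immediate early genes to the left. Paneth cell genes differ in sign between the genotypes, as do other lists, among them goblet cell and antimicrobial genes.

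Immediate early genes, which cells switch on within minutes of a stimulus, were mostly lower in the Hoxd13-low libraries. Of 18 members, all filtered, 11 were lower and none higher, against 3.38% of all genes. Outside the high range lay 15 (34.1% of all genes did). The median log2 difference was -1.12 in WT and -1.14 in Degs2_KO. Fosb was at 26.8 CPM in WT1 and 16.7 CPM in Degs2_KO3 and at 283, 404 and 494 CPM in the lowest, median and highest high library, 18.3-fold lower by the means. Fos and Jun, which pair as the AP-1 factor, were at 322 and 346 CPM against 700.05 to 1194 CPM and at 249 and 244 CPM against 689 to 1062 CPM. By the rule itself both low libraries lay under every high library for these genes. Klf2, a Kruppel-like factor, was at 3.16 CPM in WT1 and 2.24 CPM in Degs2_KO3 against 25.8, 37.7 and 45.4 CPM, and Dusp1, a phosphatase that ends MAP kinase signals, at 24.2 and 17.6 CPM against 70.8 to 122 CPM. Junb, Jund, Klf6 and Btg2 were under the high range without reaching 2-fold. Fosl1, Ier3 and Egr3 had positive differences.

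Clock genes differed in both directions. Of 18 members 16 passed the filter, 4 were higher and 2 lower, against 4.19% and 3.38% of all genes. Arntl, the BMAL1 activator of the loop, was at 15.7 CPM in WT1 and 14.1 CPM in Degs2_KO3 against 48.7, 58.8 and 67.6 CPM, and its partner Npas2 at 22.7 and 16.5 CPM against 39.4 to 49.2 CPM. Targets of the activators were higher: Dbp at 36.1 CPM in WT1 and 50.6 CPM in Degs2_KO3 against 1.77, 6.89 and 10.6 CPM, Tef at 97.9 and 105 CPM against 13.5 to 38.5 CPM and Ciart at 9.37 and 13.2 CPM against 0.766 to 2.71 CPM. Cry2, a repressor, was at 30.8 and 35.9 CPM against 12.2 to 19.7 CPM. As the rule requires, the low libraries did not overlap the high ones in any of these 6 genes. Clock and Nfil3 lay below the high range and Per3 and Nr1d2 above it, all short of 2-fold. Per2 at 35.6 and 45.7 CPM and Nr1d1 at 128 and 143 CPM, against 23.5 to 44.4 CPM and 79.3 to 153 CPM, did not meet the rule. The sources used here give no collection times. The part of immediate early and clock genes in the other differences was not tested.

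**Figure D5:**
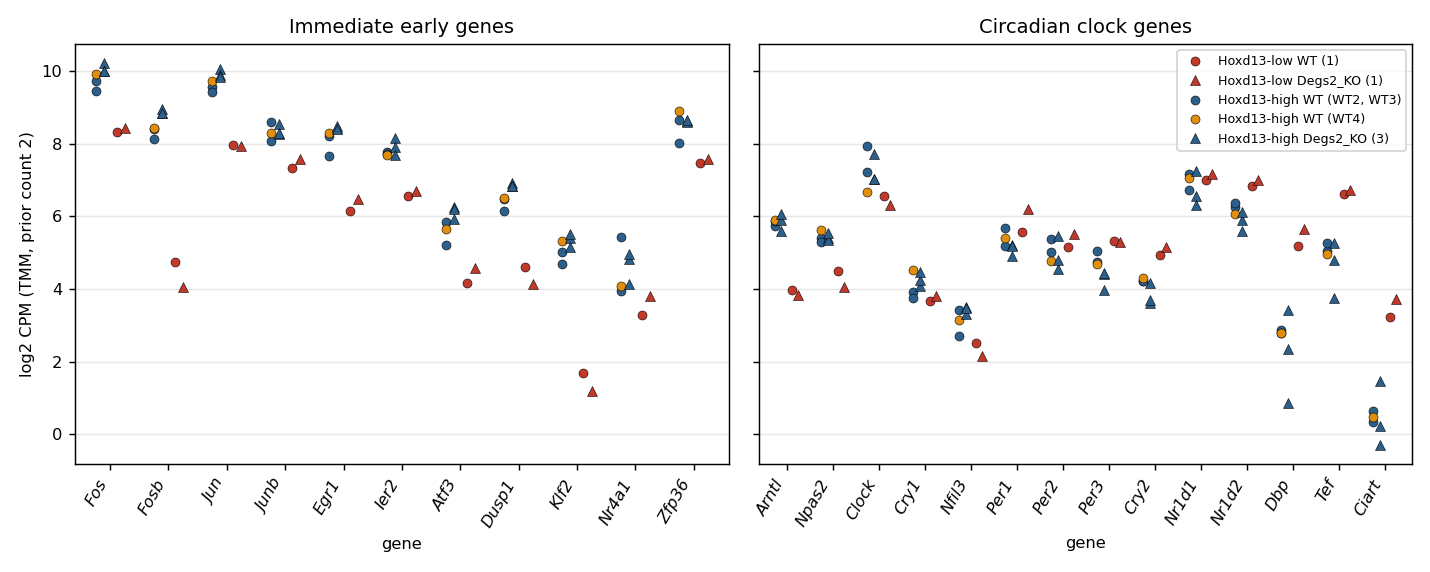
Log2 CPM (prior count 2) of 11 immediate early genes (left) and 14 clock genes (right), 1 point per library, with low libraries in red, WT4 in orange, the other high libraries in blue, circles for WT and triangles for Degs2_KO. Red lies below the rest for all 11 genes on the left. On the right it lies below for Arntl, Npas2, Clock and Nfil3 and above for Dbp, Tef, Ciart, Cry2, Per3 and Nr1d2.

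Markers of other cells gave a measure of what else the preparations held. Of 20 T cell and intraepithelial lymphocyte markers 19 passed the filter, 11 were higher (4.19% of all genes were) and none lower, with a median of 1.08. Cd8a, a coreceptor of these lymphocytes, was at 6.4 CPM in WT1 and 4.02 CPM in Degs2_KO3 against 0.334, 1.5 and 2.45 CPM. The granule proteases Gzma and Gzmb were at 5.38 and 4.94 CPM against 0.191 to 2.53 CPM and at 4.8 and 4.75 CPM against 0.0954 to 2.48 CPM. By the rule itself their classes did not overlap, and the list summed to at most 69.5 CPM in any library.

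Of 14 myeloid markers 11 passed the filter, 4 were lower and 1 higher, against 3.38% and 4.19% of all genes. They summed to 29.0 to 32.1 CPM in the low and 39.7 to 49.9 CPM in the high libraries. The receptor gene Csf1r was at 0.0724 and 0.145 CPM against 0.429 to 1.18 CPM. C1qb and C1qc were lower and C1qa higher, the last at 2.51 CPM in WT1 and 0.458 CPM in Degs2_KO3 against 0.191 to 0.406 CPM, although their products form a single complex. Fibroblast markers summed to 18.1 to 18.3 CPM in the low and 15.9 to 62.1 CPM in the high libraries, with the top value in WT4, and none of 9 filtered members met the rule. None of 7 filtered B and plasma cell markers met it either. Among 9 smooth muscle genes Synpo2 was lower, Myh11 and Lmod1 were at 0 in both low libraries, and the list summed to 99.0 to 115.4 CPM in the low and 57.7 to 96.7 CPM in the high ones, most of it from Mylk. Of 8 endothelial markers Tek was higher, of 10 neuron and glia markers Uchl1 was lower, and of 14 squamous markers Krt13 was lower, each under 1 CPM in every library. Trp63 and Ivl, which identify squamous epithelium, were at 0 in all 8 libraries. The part of these cells in the class difference was not tested.

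WT4, the high library with the least Hoxd13, lay nearest to the low libraries for many genes. It was the highest of the 6 high libraries in 404 of the 715 genes higher in the low ones (56.5%), and in 24.0% of all genes. Over those 715 genes it stood a median 0.61 on the log2 scale above the other 5 high libraries, where the low libraries stood 1.60 above the same 5. Among the 577 lower genes the nearest was more often Degs2_KO4 (175, 30.3%) than WT4 (139, 24.1%). Over all genes Degs2_KO4 was the lowest high library in 13.0% and WT4 in 27.6%, so for WT4 the share was not above that of all genes. WT4 also had the most fibroblast transcripts, as given above, and their part in its position was not tested.

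Within the 6 high libraries, where Hoxd13 was not used to split them further, its log2 CPM was related to the other 3 markers over all pairings. Hoxb6 gave Pearson r = -0.757 (exact permutation p = 0.0389, Benjamini-Hochberg adjusted 0.117 over 3 relations) and Spearman rho = -0.714 (exact permutation p = 0.136, adjusted 0.408). Without the 2 libraries farthest from the median Hoxd13, r was -0.56. Slc10a2 gave r = -0.226 (exact permutation p = 0.731, adjusted 0.731) and rho = -0.0857 (exact p = 0.919, adjusted 0.919), with r = -0.48 without those 2. Car1 gave r = -0.350 (exact permutation p = 0.475, adjusted 0.713) and rho = -0.143 (exact p = 0.803, adjusted 0.919), with r = -0.0526 without them. None passed the adjustment, and 6 libraries leave little room to detect a relation. With genotype as a batch each arm has only 3 high libraries, too few for a value of its own.

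The genotype comparison asks how loss of Degs2 changes the epithelium, and both its arms hold 1 Hoxd13-low library. Degs2 itself was at 151, 109.9, 106 and 119 CPM in WT1 to WT4 and at 52.8, 47.9, 65.9 and 66.5 CPM in Degs2_KO1 to Degs2_KO4. Every Degs2_KO library was under every WT library, and in each genotype the low library held one of the 2 highest values. In the Hoxd13-high libraries alone the 3 WT libraries averaged 112 ± 6.48 CPM (SD) and the 3 Degs2_KO libraries 55.7 ± 9.64 CPM (SD).

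With the 6 high libraries, 3 against 3, edgeR's quasi-likelihood test called 0 of 16214 genes (0% of the tested) after Benjamini-Hochberg adjustment, with 650 at an unadjusted p under 0.05 and a smallest adjusted p of 0.258, that of Saa1. Saa1 averaged 603 ± 56.1 CPM over the 3 WT and 295 ± 13.6 CPM over the 3 Degs2_KO libraries (SD), a log2 fold change of -1.03 ± 0.10 (SE), lower in all 3 Degs2_KO libraries. Over 15 settings edgeR, limma and DESeq2 gave Saa1 adjusted p-values from 3.11e-16 to 0.9996, and only DESeq2 called it. In simulated data for this test 53 of 199 DESeq2 calls were false and 14 of 125 edgeR calls. The simulation used the spread that edgeR had estimated, which may favour edgeR, so it cannot settle which tool is right here. DESeq2 calls that edgeR does not share still need caution. With all 8 libraries and the class as a term, edgeR again called 0 of 17083 genes, with 598 at an unadjusted p under 0.05. Degs2 had the smallest adjusted p, 0.108, at a log2 fold change of -1.05 ± 0.11 (SE, 4 libraries each), lower in all 4 Degs2_KO libraries. Over 18 settings its adjusted p lay between 5.04e-14 and 0.971, and it was called with DESeq2, without a count filter by edgeR (0.0102) and without Degs2_KO4 by edgeR (0.0127). In simulated data for the fit with the class term 40 of 175 DESeq2 calls were false and 7 of 129 edgeR calls. Those data held no class difference, unlike the real libraries. Without the class term 208 genes had an unadjusted p under 0.05 and the smallest adjusted p was 0.971.

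Whether the low against high difference depends on genotype cannot be answered with 1 low library per genotype and classes set by measured values. An interaction term was fitted as a description, with the spread taken from the high libraries. Its p-values and counts of genes are therefore not given. For Degs2 the interaction term was -0.19 on the log2 scale. DESeq2 called 32, 19 and 5 genes in the 3 tests. Of these 9 (0.0555% of the tested), 2 (0.0117%) and 1 (0.00585%) were higher in Degs2_KO or had a positive interaction, and 23 (0.142%), 17 (0.0995%) and 4 (0.0234%) were lower or negative.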

How the data were processed

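Total RNA of colonic epithelial cells was sequenced in 4 WT and 4 Degs2_KO libraries. Per the submitters' processing notes, Cuffdiff, TopHat2 2.0.10, cutadapt 1.9 and Cufflinks 2.1.1 were used on mm10, and the sources used here name no annotation, order of steps or use of strand. Per the file headers, each gene has an estimated count and a status in every library. The deposited estimated counts were not whole, because each library was scaled by 1 factor. Division by the library's step made between 96.9% and 97.2% of values up to 100 whole, within 0.02. The table lists 54141 genes, 54074 of them with a symbol, and 47 with a failed or overfull estimate (FAIL or HIDATA) in any library were dropped, among them Hnf4a, Clca1 and Fcgbp. The 24 columns of variance and confidence bounds were not used.

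Libraries were classed by Hoxd13 (below 5 CPM of the deposited column sum), so low against high is described without a test. Estimated counts were rounded, filtered with filterByExpr over the class (minimum count 10, total 15) and normalised with TMM in edgeR 4.0.16 (R 4.3.3). A gene differed when both low libraries lay outside the range of the 6 high ones by a log2 difference of means of at least 1. The genotype was tested in the 6 high libraries and in all 8 with the class as a term. The test was edgeR's 2-sided quasi-likelihood F test with Benjamini-Hochberg adjustment at 0.05. An interaction of genotype and class was fitted as a description only. DESeq2 1.42.0 and limma 3.58.1 were alternatives, beside other scalings and filters, other sizes of difference, left-out libraries, a replicate block and, chosen after seeing the data, the authors' scaling undone. Each fit was tried on a simulated data set in which 200 genes changed, with the spread that edgeR estimated and no class difference. A floor of 3 fragments is 0.0624 to 0.0950 CPM and covers counting error only.

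The members, the 43 gene lists (763 symbols, 2 unmatched) and the rule for named genes were chosen with earlier results of these data known. The rule names the 4 markers, the first 12 genes per direction at 1 CPM or more ranked by the smaller within-genotype difference, and up to 4 members that met the rule from each list, or else the 2 with the highest mean. A few genes so named are left out of the text. For each genotype test it names Degs2 and the 2 genes per direction with the smallest p. Other named genes, among them Muc2 and the further members of the lists, were chosen after their values were seen. Coordinates are from GENCODE M21 on GRCm38, and promoters from RefSeq on GRCm38.p6 (11574 genes with an entry), where Hoxb6, Car1, Hoxb13 and Osr2 have none.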

Additional observations from a re-analysis of the deposited data

Results flagged for a closer look

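In the 6 Hoxd13-high libraries, 179 named genes were searched for a single library far from the rest by Dixon's criterion, the gap to the nearest library over the whole range. Chance alone marks about 1 in 20 independent groups of normal values, and 19 of the 179 were marked. The 179 genes share the same 6 libraries and many were picked by their class difference, so an excess over chance cannot be read from this. WT4 was the highest library in 10 of them: Hoxb6 at 8.81 CPM, Hoxb5 at 4.55 CPM, Hoxd3 at 0.683 CPM, Hoxa9 at 89.4 CPM, Osr2 at 6.22 CPM, Slc51a at 12.6 CPM, Cyp3a44 at 0.0943 CPM, Saa3 at 0.825 CPM, Csf1r at 1.18 CPM and Igha at 4.12 CPM. For Hoxd3 and Cyp3a44 the other 5 high libraries were listed at 0, and Cyp3a44 in WT4 was near the floor of 0.0743 CPM. For Top2a, a replication gene, WT4 was the lowest library at 81.4 CPM.

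WT3 was the lowest library for Nkd1 at 0.381 CPM, Egr1 at 203 CPM, Zfp36 at 258 CPM and Atp5b at 1504 CPM. Degs2_KO4 was the lowest for Galnt17 at 1.32 CPM, Enpep at 0.0718 CPM and Tef at 13.5 CPM. Degs2_KO2 was the highest for Creb3l3 at 3.55 CPM. Within the 4 libraries of a genotype the Hoxd13-low library stands apart by its choice, so such gaps were not listed.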

How the results depend on the processing

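The count of genes higher in the low libraries was 196 at a log2 difference of at least 2 and 1463 at 0.5, and of lower genes 103 and 1327. A stricter filter, which tests fewer genes, left 307 lower genes. Leaving out each library in turn gave 690 to 977 higher and 518 to 993 lower genes, the most higher genes without Degs2_KO3 and the most lower genes without WT1. Across genes r between the genotypes was 0.569 without a filter and 0.845 with the stricter one. DESeq2 called 32, 19 and 5 genes in the high libraries, with the class as a term and for the interaction, where edgeR called 0. With the class as a term edgeR called 1 gene, Degs2, without a filter, and 0 to 1 when each library was left out. The interaction could not be fitted without WT1 or without Degs2_KO3. With the replicate block edgeR called 0 genes in the high libraries (636 at an unadjusted p under 0.05) and 0 with the class as a term (764). With the genotype mean taken off, same-numbered libraries had correlations of -0.424, 0.415, -0.565 and -0.0928. Numbers 1 and 3 each join a low and a high library, and the class difference was not taken off. These values therefore cannot tell whether replicate numbers pair the samples. With 0 calls in either fit, the block had none to change. Of 123 named genes that met the rule, 118 to 122 kept it when each library was left out, and none changed sign. Most were picked because they met the rule, and leaving out a library loosens its range condition. Keeping the rule is therefore no independent support. Without WT1, 12 of them moved by at least 1 SD of the high libraries, and without Degs2_KO3 also 12. Single libraries per class and genotype are the main limit: the low class has 2, chosen by their own values, and genes near 3 fragments cannot be told from 0.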
